A study of Mus musculus with 3 samples.

Results

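The Cdkn2a and Cdkn2b locus on mouse chromosome 4 was examined for peaks of Ring1B and Zrf1 in neural progenitor cells. The locus was defined by position alone, as the 120 kb from 88880000 to 89000000 in the mm9 build, and every peak that overlapped it by at least 1 bp was a member. It held 6 peaks, 5 of the 11790 in the Ring1B list and 1 of the 11647 in the Zrf1 list. Both lists came from chromatin immunoprecipitation followed by sequencing (ChIP-seq), in which DNA crosslinked to a protein is pulled down with an antibody and a peak marks a stretch where its reads pile up. The neural progenitors had been differentiated from the embryonic stem cell line E14TG2a and were kept in N2 medium with EGF and FGF2, and no genotype or drug treatment set the libraries apart. The series comprised 1 Ring1B, 1 Zrf1 and 1 rabbit IgG library, all from chromatin fixed with 1% formaldehyde for 10 min. The antibodies against Ring1B and Zrf1 were made in the laboratory of Di Croce. The IgG library was not analysed here. With 1 library per antibody there was no replicate error, and the intervals carry no measure of depth or peak height. The labelled cell type could not be checked against its markers, since the lists hold no expression.

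Cdkn2a and Cdkn2b are a classical target of Polycomb repression. Cdkn2a encodes p16Ink4a, an inhibitor of the cyclin D-dependent kinases Cdk4 and Cdk6, and, from a separate first exon read in another frame, p19Arf, which restrains Mdm2 and so stabilises p53. Cdkn2b encodes p15Ink4b, a relative of p16Ink4a that inhibits the same kinases. Ring1B is the catalytic subunit of Polycomb repressive complex 1, known as PRC1, and mono-ubiquitylates histone H2A. Bmi1, another subunit of that complex, is known to hold Cdkn2a down in neural stem cells and so to sustain their self-renewal. Zrf1, encoded by Dnajc2, is known to bind ubiquitylated H2A.

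The promoters of the members are shown because CpG-rich start sites are the usual landing places of Polycomb complexes in mammals. RefSeq sequences were found for both members, with 3 start sites. Cdkn2a has an upstream start site, that of the p19Arf first exon, and a downstream one, that of the p16Ink4a first exon, and Cdkn2b has a single start site. The 250 bases before each start site are printed 5′ to 3′, with each CpG dinucleotide in capitals.
Cdkn2a, upstream start site (p19Arf), GRCm38.p6 chr4:89294620-89294869, minus strand: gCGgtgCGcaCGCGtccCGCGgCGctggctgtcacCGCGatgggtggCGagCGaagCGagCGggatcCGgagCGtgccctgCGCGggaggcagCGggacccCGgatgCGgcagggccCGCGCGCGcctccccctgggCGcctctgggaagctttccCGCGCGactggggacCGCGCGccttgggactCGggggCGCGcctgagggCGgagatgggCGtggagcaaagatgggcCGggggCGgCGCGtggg
Cdkn2a, downstream start site (p16Ink4a), GRCm38.p6 chr4:89282193-89282442, minus strand: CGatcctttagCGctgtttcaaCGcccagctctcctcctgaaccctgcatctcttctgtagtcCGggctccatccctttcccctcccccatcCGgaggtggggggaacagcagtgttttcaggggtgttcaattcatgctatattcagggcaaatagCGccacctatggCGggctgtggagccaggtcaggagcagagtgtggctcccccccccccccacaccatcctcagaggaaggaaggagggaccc
Cdkn2b (p15Ink4b), GRCm38.p6 chr4:89311033-89311282, minus strand: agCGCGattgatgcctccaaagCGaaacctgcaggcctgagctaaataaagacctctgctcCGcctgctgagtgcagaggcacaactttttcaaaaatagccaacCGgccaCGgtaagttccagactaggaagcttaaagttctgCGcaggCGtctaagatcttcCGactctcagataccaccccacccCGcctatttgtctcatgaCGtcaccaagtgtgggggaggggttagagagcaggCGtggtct
These positions are in GRCm38.p6 and were not converted to mm9. Which peak covers which start site was therefore not determined, and peak sequences were not analysed here.

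The 3 promoters differed widely in CpG content. The upstream promoter of Cdkn2a held 40 CpG dinucleotides, more than 98.7% of the 32851 RefSeq start sites of the same length, and 78.4% of its bases were G or C. The downstream promoter of Cdkn2a held 7, close to the median of 6 over all start sites, with 60% G or C. The Cdkn2b promoter held 12, more than 66.5% of start sites, with 53.6% G or C. The ratio of observed to expected CpG was 1.08 at the upstream Cdkn2a start, 0.67 at Cdkn2b and 0.32 at the downstream Cdkn2a start, beside a median of 0.37 over all start sites. Of the 3 promoters, that of p19Arf thus held the most CpG dinucleotides, and the Cdkn2b ratio also lay above the median. Bases after the start sites were not counted.

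**Figure D1:**
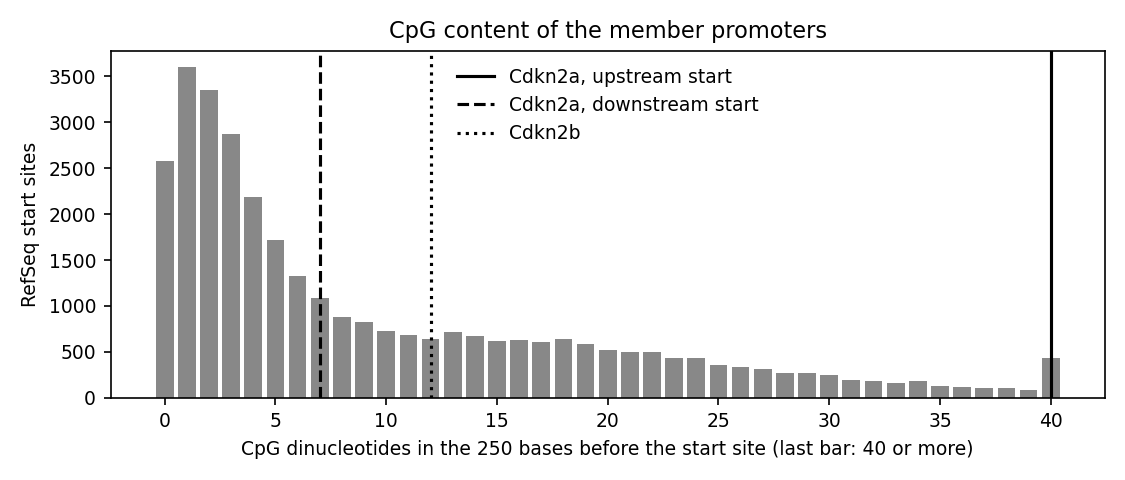
CpG dinucleotides in the 250 bases before each of 32851 RefSeq start sites (x axis, count; y axis, number of start sites; the last bar holds 40 or more), with the 3 start sites of Cdkn2a and Cdkn2b as vertical lines. The upstream Cdkn2a start (40) lies at the far right of the distribution, Cdkn2b (12) in its upper part and the downstream Cdkn2a start (7) near its median of 6.

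Short sequence motifs were searched on both strands of these promoters, with no motif overlapping another on the list. The GC box GGGCGG, bound by Sp1, occurred 2 times before the upstream Cdkn2a start and not before the others, and 32.7% of all start sites held it. The cAMP response element TGACGTCA occurred 1 time before the Cdkn2b start, and 1.55% of all start sites held it. The Myc E box CACGTG (6.02% of all start sites) and the TATA box TATAAA (12.4%) were found before none of the 3. A match describes the letters only.

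Ring1B had 5 listed peaks in the middle of the locus and none in its outer parts. The first Ring1B peak ran from 88918930 to 88920270 and was 1340 bp wide. The second, from 88920407 to 88921493, was the narrowest at 1086 bp and began 137 bp after the first. Only 3.35% of the gaps in the Ring1B list were shorter than this gap. The third ran from 88927206 to 88928845 (1639 bp). Together these 3 made up the lower part of the occupied stretch, with a gap of 5713 bp between the second and the third. Peak 4, from 88939886 to 88941783, was the widest at 1897 bp and followed 11041 bp after the third. Peak 5 ran from 88948651 to 88949871 (1220 bp), 6868 bp after peak 4. From the first to the last, the peaks spanned 30.9 kb and covered 7182 bp of it, or 23.2%. No Ring1B peak was listed in the lowest 38.9 kb or the highest 50.1 kb of the locus.

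Zrf1 had a single peak in the locus, and it lay on the widest Ring1B peak. The Zrf1 peak ran from 88940036 to 88941212 and was 1176 bp wide. It lay wholly inside Ring1B peak 4, starting 150 bp after its start and ending 571 bp before its end, so that it covered 62.0% of that peak. The centres of the pair were 210.5 bp apart, and 57.5% of the 1995 overlapping pairs in the lists had closer centres, around a median of 165 bp. Of the 1976 Zrf1 peaks that overlapped Ring1B anywhere, 835 (42.3%) were likewise wholly inside Ring1B peaks. The other 4 Ring1B peaks of the locus had no Zrf1 peak on them, and the nearest of them lay 7.44 kb above and 11.2 kb below the Zrf1 peak. In the whole lists 16.6% of Ring1B peaks overlapped a Zrf1 peak and 17.0% of Zrf1 peaks overlapped a Ring1B peak. With 1 of 5 Ring1B peaks, sharing in the locus was near that background, and so few peaks cannot show a difference from it.

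**Figure D2:**
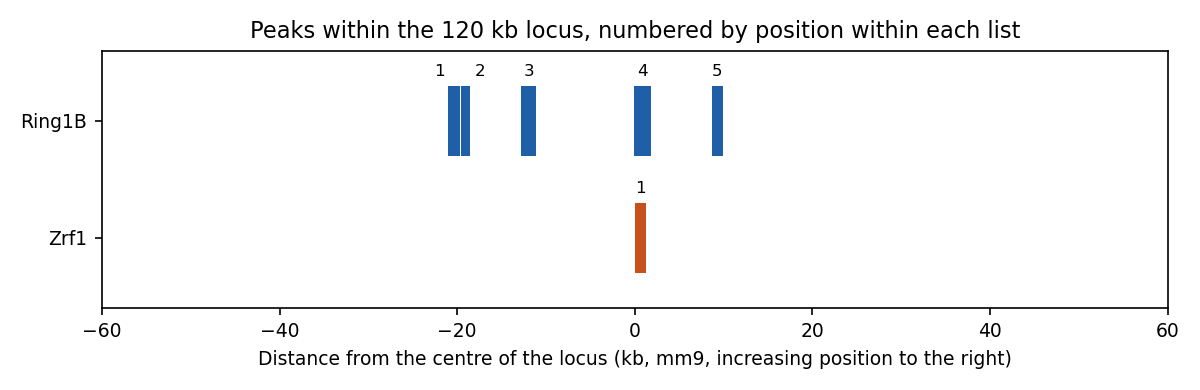
Peaks of Ring1B (upper row) and Zrf1 (lower row) drawn to scale within the 120 kb locus (x axis, distance from its centre in kb), numbered by position. The 5 Ring1B peaks lie within 30.9 kb in the middle, and the only Zrf1 peak sits under Ring1B peak 4.

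The Ring1B peaks of the locus were of ordinary width for their list. The widths of 1086, 1220, 1340, 1639 and 1897 bp had a median of 1340 bp, beside 1324 bp over all Ring1B peaks. The narrowest was wider than 32.9% of the list and the widest than 80.2%. The peak shared with Zrf1 was wider than 75.1% of the 1956 Ring1B peaks that overlapped Zrf1 anywhere. The Zrf1 peak stood higher in its own list, being wider than 83.4% of all Zrf1 peaks, which had a median of 796 bp. Among the Zrf1 peaks on Ring1B, with a median of 1093 bp, it was wider than 58.0%. Width is not a measure of binding strength.

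**Figure D3:**
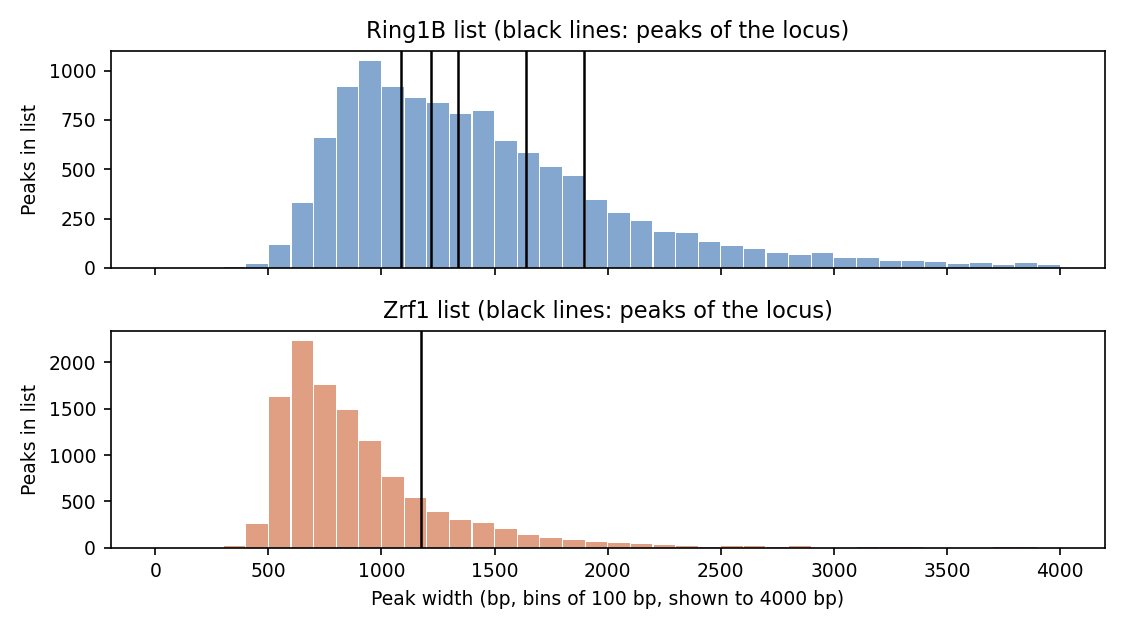
Peak widths in the Ring1B list (upper panel) and the Zrf1 list (lower panel) in bins of 100 bp (x axis, width in bp, shown to 4000 bp; y axis, number of peaks), with black lines at the peaks of the locus. The 5 Ring1B lines, 1086 to 1897 bp, fall in the body of the Ring1B distribution, and the Zrf1 line at 1176 bp falls to the right of most Zrf1 peaks.

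The locus was dense in Ring1B peaks and ordinary in Zrf1 peaks when set beside equal windows. The autosomes and the X chromosome were divided into 21981 windows of 120 kb, of which 29.4% held at least 1 Ring1B peak and 1.49% (328 windows) at least 5. A further 304 windows held exactly 4, the count of the locus if its first and second peaks, 137 bp apart, were merged. At least 1 Zrf1 peak was found in 30.7% of windows, and a Ring1B peak on a Zrf1 peak in 7.38%. Among the 328 windows with 5 or more Ring1B peaks, 83.2% held at least 1 Zrf1 peak and 65.5% held a Ring1B peak on a Zrf1 peak, as the locus did. The median of these 328 windows was 2 Zrf1 peaks (quartiles 1 and 4), 17.7% held exactly 1 and 16.8% held none. The borders of the locus were drawn around the genes and those of the windows were not. The locus was also chosen as a known Polycomb target, unlike the windows, so the shares are a description.

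**Figure D4:**
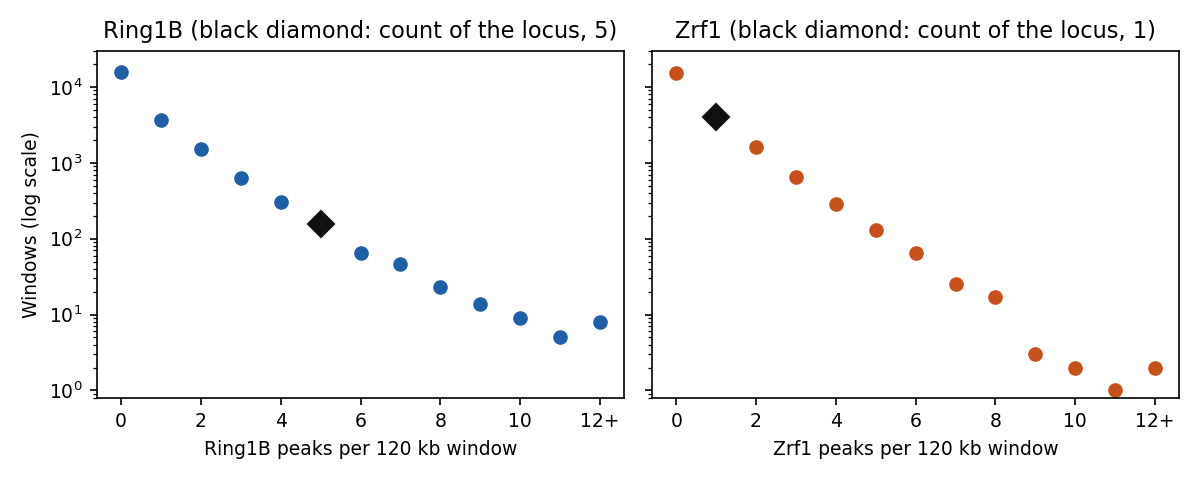
Number of 120 kb windows (y axis, log scale) by their count of Ring1B peaks (left) or Zrf1 peaks (right; x axis, 12 or more pooled), with the count of the locus as a black diamond. The locus count of 5 Ring1B peaks lies in the sparse right part, reached or passed by 1.49% of windows, while its 1 Zrf1 peak is reached by 30.7%.

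The flanking 500 kb on each side together held 11 Ring1B and 4 Zrf1 peaks, most of them in 1 group of the lower flank. The upper flank held 1 Ring1B peak, from 89354567 to 89356467, with no Zrf1 on it. It also held 1 Zrf1 peak, from 89053522 to 89054834, with no Ring1B on it. The lower flank held 10 Ring1B and 3 Zrf1 peaks, all of them in a group of 44.4 kb with gaps of at most 15 kb, from 88405420 to 88449808 for Ring1B, which ended 430 kb below the locus. The starts of 8 of these 10 Ring1B peaks followed each other at 2732 to 3112 bp or at 5832 to 5835 bp, and the sequence and IgG signal there were not analysed here. In that group 3 Ring1B peaks, from 88421794 to 88423664, from 88424713 to 88426703 and from 88430557 to 88432352, overlapped the 3 Zrf1 peaks, from 88421727 to 88423614, from 88424697 to 88426518 and from 88430502 to 88432402. Between that group and the locus neither protein had a peak. The gap of 469 kb below the first Ring1B peak of the locus was longer than 89.8% of the gaps in the Ring1B list, and the gap of 405 kb above the last was longer than 88.4%, around a median gap of 60.4 kb. For Zrf1 the gaps were 508 kb below and 112 kb above, longer than 91.0% and 63.4% of the gaps in its list.

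The density of Ring1B peaks was 41.7 per Mb in the locus, 20 in the lower flank and 2 in the upper flank. Both flanks together held 11.0 per Mb, beside 4.99 over chromosome 4. The locus held 5 of the 16 Ring1B peaks of the region, or 31.2% (exact Clopper-Pearson 95% interval 11.0 to 58.7%), and 10.7% of its bases, just below the lower bound of the interval. When peaks narrower than the median of their list were dropped, the share was 21.4% (95% interval 4.66 to 50.8%), which contains the share of the bases. The comparison also rests on the group of regularly spaced peaks in the lower flank, whose part in it was not tested further than by leaving it out, after the data had been seen. Without all 10 of its Ring1B peaks, the locus held 5 of 6 (83.3%, 95% interval 35.9 to 99.6%). For Zrf1 the density was 8.33 per Mb in the locus, 6 in the lower and 2 in the upper flank. It was 4 in both flanks together and 4.46 over the chromosome. The locus held 1 of the 5 Zrf1 peaks (20%, 95% interval 0.505 to 71.6%), and no difference from the flanks was detectable at this number. The intervals cover counting error only and take peaks as independent, which neighbours are not. The first and second Ring1B peaks of the locus, 137 bp apart, were counted separately in these shares.

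**Figure D5:**
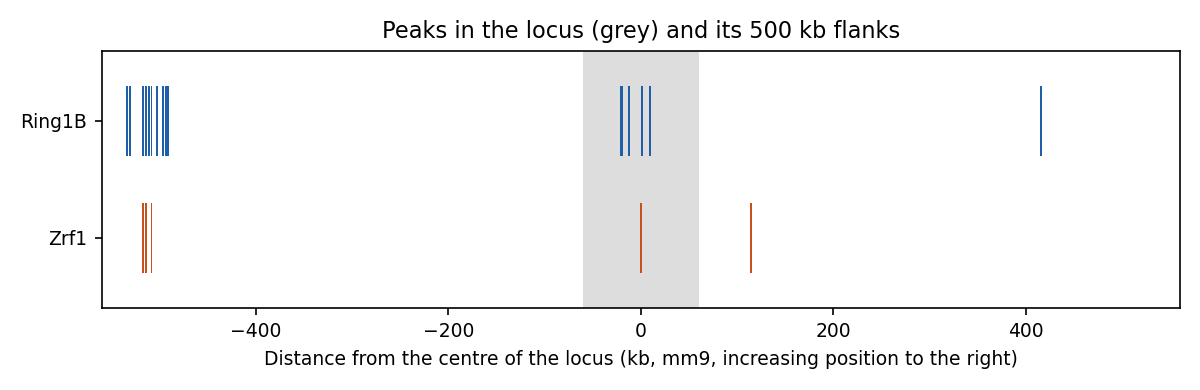
Peaks of Ring1B (upper row) and Zrf1 (lower row) in the locus (grey) and the 500 kb on each side (x axis, distance from the centre of the locus in kb), each drawn at least 2 kb wide. The 5 Ring1B peaks and 1 Zrf1 peak of the locus are separated by empty sequence from the group of 10 Ring1B and 3 Zrf1 peaks at the far left and from single peaks on the right.

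Although dense by window, the Ring1B peaks of the locus formed no long run. With gaps of at most 5 kb, only the first and second peaks joined, covering 2426 bp, and the others stood singly. Of the 10054 Ring1B runs in the list, 1139 held at least 2 peaks and 1403 covered at least as many bases. The peaks from the third on were separated from their neighbours by 5.71 to 11.0 kb. In the lower flank, by contrast, 8 of the 10 Ring1B peaks joined into a run, and 26 of the 10054 runs, itself included, covered at least as many bases.

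Compact and isolated Ring1B groups like that of the locus were collected by limits taken from the locus itself, so that their number is set by that choice and the list is a description. Of 1351 stretches of Ring1B peaks bounded on both sides by gaps of at least 405 kb, the smaller of the gaps around the locus, 404 (29.9%) were a single peak and 553 (40.9%) held 5 or more. Of these, 10, the Cdkn2a and Cdkn2b locus among them, held 5 or more peaks within its span of 30.9 kb. They spanned 11.8 to 30.9 kb with 5 to 9 Ring1B peaks. The locus held exactly 5, with its first and second peaks, 137 bp apart, counted separately. Zrf1 had a peak in 4 of the 10, 1 peak each. These were the Cdkn2a and Cdkn2b locus and 3 of the 9 others. In all 4 it lay on a Ring1B peak, as did 17.0% of Zrf1 peaks in the whole list. Among the 328 windows with 5 or more Ring1B peaks, 83.2% held a Zrf1 peak and 65.5% a Ring1B peak on a Zrf1 peak. Those windows are 120 kb long and the groups at most 30.9 kb, so the shares refer to unlike lengths. A difference from these shares was not tested.

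The genes beside the members are given by name from RefSeq (GRCm38.p6), since the peaks were not assigned to them. Towards lower positions, the next protein-coding genes are Mtap, a methionine salvage enzyme, then Ifne and Ifna1, which encode type I interferons. Towards higher positions they are Dmrta1, a transcription factor of the DMRT family, then Zfp352 and Elavl2, the latter a neuronal RNA-binding protein. The long non-coding RNA Gm12610, for which the table gives ANRIL as a synonym, starts between Cdkn2a and Cdkn2b. Other genes of the pathway, such as Cdk4, Cdk6, Rb1, Mdm2 and Trp53, and regulators such as Bmi1 and Ezh2, were not placed on mm9 and not analysed here. Absence of a peak, as in the outer parts of the locus, does not show absence of binding, since depth is unknown.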

How the data were processed

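Per the labels, each list came from 1 ChIP-seq library of neural progenitors. The authors deposited 2 lists with no header, scores or gene names, each holding chromosome, start and end alone. Per the submitters' processing notes, Bowtie 0.12.7, MACS 1.4.2 and mm9 were used; threshold and control: not given in the sources used here. Each list was assigned by the antibody in its name. Starts are printed as deposited, whether they count from 0 or 1 being unknown.

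Widths, gaps, overlaps (at least 1 bp), runs (gaps up to 5 kb) and counts in 120 kb windows laid over mm9 chromosome lengths (GenomeInfoDb 1.38.1) were computed with SciPy 1.17.1 and NumPy 2.4.6 under Python 3.11.15, and drawn with matplotlib 3.10.9. No test was run, with 1 library per antibody. Overlap counting was tested on simulated data, and the counts equalled those of bedtools 2.31.1. The peaks named are all those in the locus, and in the flanks the nearest on each side and the shared ones; 3 neighbouring genes per side were named. Start sites within 1 kb of peaks were planned but need an mm9 annotation. Members and lists were chosen with earlier results of these data known. The isolated stretches, the CpG and motif counts and the group in the lower flank (gaps up to 15 kb) were examined after the data had been seen.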

Additional observations from a re-analysis of the deposited data

How the results depend on the processing

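The locus held 5 Ring1B peaks and 1 Zrf1 peak with its borders 50 kb further out or 20 kb further in, by peak centre and with starts counted from 1. When peaks narrower than the median were dropped, 3 Ring1B peaks were counted, fewer by construction. The counts were not repeated with peaks as close as the first and second of the locus merged. The shared pair stayed at 1 with a reciprocal overlap of 50% and within 1 or 5 kb, and the largest run was 2 peaks with gaps up to 2 kb and 3 with gaps up to 10 kb. The share of the region's Ring1B peaks in the locus, 31.2% (95% interval 11.0 to 58.7%) beside 10.7% of the bases, was 83.3% without the group in the lower flank (added after seeing the data). It was 100% (95% interval 47.8 to 100%) with flanks of 250 kb, which leave out every flanking Ring1B peak, beside 19.4% of the bases, and 29.4% (95% interval 10.3 to 56.0%) with flanks of 1 Mb, beside 5.66%. Among the wider peaks it was 21.4% (95% interval 4.66 to 50.8%), and the interval then contained the 10.7% of the bases. The Zrf1 share of 20% was 50% with flanks of 250 kb, beside 19.4% of the bases, and 50% without the group, beside 10.7%. Both had a 95% interval of 1.26 to 98.7%, which contains the share of the bases. Measured from the centre of the locus, the nearest outside peaks lay 490 kb below and 415 kb above for Ring1B and 508 and 114 kb for Zrf1, against 430, 355, 448 and 53.5 kb from its borders, by construction. The share of windows with at least 1 Zrf1 peak was 29.7% on chromosome 4 (95% interval 27.2 to 32.3%), which contains the 30.7% of all windows. No paired analysis was possible because each antibody had 1 library. Depth is unknown and limits every absence.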

Other observations

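Most Ring1B peaks of the group in the lower flank started at similar steps. The first 2 peaks started 3049 bp apart, within the range of the short steps among the rest. The second of them started 13325 bp before the third peak, which set the pair apart. From the peak that starts at 88421794, the starts of 8 Ring1B peaks followed each other at steps of 2919, 2732, 3112, 5835, 5832, 2916 and 2939 bp. The steps of 5835 and 5832 bp were 2 times the median short step of 2919 bp. The 3 Zrf1 peaks there, of 1887, 1821 and 1900 bp, started 2970 and 5805 bp apart and each overlapped a Ring1B peak. The 10 Ring1B widths ranged from 1453 to 2200 bp, against 1086 to 1897 bp in the Cdkn2a and Cdkn2b locus. Start steps were not computed for the locus. The sequence under the group and the IgG signal there were not analysed here, and the cause of the spacing was not tested.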
